A study of Mus musculus with 4 samples.

Results

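Alternative splicing in muscle is set by RNA-binding proteins that bind next to exons and promote or block their inclusion, and 9 of their genes are described here: Mbnl1, Mbnl2, Celf1, Celf2, Rbfox1, Rbm20, Rbm24, Ptbp1 and Qk. They were chosen by name. Each row of the expression values whose gene symbol matched was taken, and rows of the same symbol were summed. The 9 genes came from 10 rows, among 20340 genes with a value in all samples. All 9 passed the filter for testing, together with 10266 genes in total, but Ptbp1 passed it through the samples Old 1 and Young 2 alone.

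The values were from mRNA-seq of the tibialis anterior (TA), a leg muscle made mostly of fast fibers, of wild type C57BL/6 mice, for which no treatment is given. The old mice were 20 months of age (samples Old 1 and Old 2) and the young mice were 3 months of age (samples Young 1 and Young 2). No transgene or other allele is named for either group. Sex was chosen at random according to the methods, which do not tell which mice gave which sample or whether mice were pooled. The study describes independent experiments for each age, and its design text speaks of triplicates, while 2 samples per age were analysed here.

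The unit is FPKM, sequenced fragments scaled to transcript length and to all mapped fragments. FPKM allows levels of different genes to be ordered within a sample. No read counts were given, so the depth behind a value is unknown and counting error could not be estimated. The 2 samples of an age differed by a common factor. Over 4062 genes with 10 to 200 FPKM in Old 1, a range that holds the 9 genes, values in Old 1 were at a median of 1.99 times those in Old 2, and values in Young 2 at a median of 1.97 times those in Young 1. After this factor, the samples of an age were close to each other, with a robust SD of the log2 ratio of 0.07 for the old and 0.07 for the young samples, while the SD was 0.40 for Old 1 to Young 2 and also 0.40 for Old 2 to Young 1. Whether the samples of an age are separate animals or the same RNA cannot be told from these values. The p-values below measure the spread between these samples, and if an age holds 1 RNA sample they have no replicate check. Old samples are therefore also compared with the young sample of the same scale, Old 1 with Young 2 and Old 2 with Young 1. These are called the crossed pairs, since their numbers differ, and they were chosen after the values were seen.

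The tissue was checked by markers of skeletal muscle fibers. Of 12 markers, 11 had a value. The fast-fiber genes Mylpf, Tnnc2 and Pvalb were between 3244 and 35474 FPKM in all 4 samples. Ckm, the muscle creatine kinase, was listed at 0 in all 4 samples, so a value of 0 in these data cannot be read as absence of the mRNA.

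The regulators fall into families. Muscleblind proteins (Mbnl1, Mbnl2) bring about the exon choice of adult muscle, and they are the proteins trapped by expanded RNA repeats in myotonic dystrophy. CELF proteins (Celf1, Celf2) act against them on many exons and favor the fetal choice. Rbfox1 acts on a large set of muscle and brain exons, and Rbm24 is found mainly in heart and skeletal muscle, where it promotes muscle exons. Rbm20 is best known for its control of titin splicing in heart. Quaking (Qk) acts in muscle, glia and vascular cells. Ptbp1, the polypyrimidine tract-binding protein, holds back many muscle and neuron exons in other cells. The families are controlled by splicing themselves, and the exons in question are shown because a gene-level FPKM adds up the forms with and without them. The capitals mark the positions at which the exons of Mbnl1 and Mbnl2 differ. Sequences and annotation are from GENCODE M21 (GRCm38, the assembly of mm10), and all 5 exons are coding and on the plus strand.
Mbnl1 exon of 54 bases, chr3:60614683-60614736: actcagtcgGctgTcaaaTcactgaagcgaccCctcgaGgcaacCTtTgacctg
Mbnl2 exon of 54 bases, chr14:120395712-120395765: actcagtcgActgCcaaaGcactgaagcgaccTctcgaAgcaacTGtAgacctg
Rbfox1 brain exon B40, chr16:7363865-7363904: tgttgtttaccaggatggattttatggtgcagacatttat
Rbfox1 muscle exon M43, chr16:7369801-7369843: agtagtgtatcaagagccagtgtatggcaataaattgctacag
Ptbp1 exon of 34 bases, chr10:79862014-79862047: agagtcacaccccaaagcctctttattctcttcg

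The exons of Mbnl1 and Mbnl2 were identical at 46 positions and differed at 8. This exon is known to carry part of the nuclear localization signal, and muscleblind proteins block its inclusion in their own mRNAs. In the annotation, 2 protein-coding transcripts of Mbnl1 included the exon and 5 skipped it, and for Mbnl2 these numbers were 3 and 2. Exons B40 and M43 of Rbfox1 are alternatives of brain and muscle. Skipping of the Ptbp1 exon shifts the reading frame and is the known way by which Ptbp1 lowers its own mRNA. None of these choices was measured, since each value covers a whole locus. Paralogs can share reads only where their transcripts are alike. The longest identical stretch was 26 bases between transcripts of Mbnl1 and Mbnl2, 24 bases between Celf1 and Celf2, 29 bases between Rbfox1 and Rbfox2, 23 bases between Rbm24 and Rbm38, and 15 bases between Ptbp1 and Ptbp2. The study's alignment allowed up to 2 mismatches, so longer stretches that are nearly identical could also share reads. Those were not measured.

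Mbnl1 had the highest level of the 9 genes in every sample. It was at 186 FPKM in Old 1, 74.0 FPKM in Old 2, 60.6 FPKM in Young 1 and 135 FPKM in Young 2. These levels placed Mbnl1 between percentile 94.2 and percentile 95.8 of the tested genes. The levels of the old and young samples overlapped, since the low sample of each age was below the high sample of the other. The level in Old 1 was 1.38 times that in Young 2, and the level in Old 2 was 1.22 times that in Young 1.

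The Mbnl1 value was the sum of 2 rows with the same interval (chr3:60370454-60629748, mm10). The first row had 155, 74.0, 60.6 and 124 FPKM in Old 1, Old 2, Young 1 and Young 2. The second row had 31.9 FPKM in Old 1 and 10.4 FPKM in Young 2, and it was listed at 0 in Old 2 and Young 1. Mbnl1 lies on the plus strand. All 37 neighbors of the first row with a known strand, among the 20 rows on each side, are plus-strand genes, and all 36 such neighbors of the second row are minus-strand genes. How strand was used in the quantification is not given in the sources used here. The first row alone gave ratios of 1.24 and 1.22 in the crossed pairs, so the 1.38 of Old 1 to Young 2 rested in part on the second row, which made up 17.1% of the Mbnl1 value in Old 1 and 7.75% in Young 2. Other genes had such rows too. Of 99 symbols with several rows at 1 interval, 86 had a lower row above 0 in Old 1 and Young 2, and in 40 of these that row was at 0 in both Old 2 and Young 1.

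Mbnl2 (chr14:120275669-120431701, mm10) was at 86.1 FPKM in Old 1, 43.5 FPKM in Old 2, 45.8 FPKM in Young 1 and 90.4 FPKM in Young 2. Each old sample was slightly below the young sample of its scale, with ratios of 0.953 and 0.950. On the log2 scale both Mbnl2 ratios were -0.07, about the size of the SD of 0.07 between samples of an age. Mbnl1 was thus higher in both crossed pairs, while Mbnl2 was near no difference. The ratio of Mbnl1 to Mbnl2, which does not depend on the scale of a sample, was 2.16 in Old 1 and 1.70 in Old 2, compared with 1.32 (Young 1) and 1.49 (Young 2). The ratio did not overlap between ages (two-sided exact permutation test, p = 0.33, which is the smallest value possible with 2 samples per age). With the highest row in place of the summed rows, the log2 difference of this ratio was 0.37 instead of 0.45. For comparison, 36.1% of 9291 other genes had a ratio to Mbnl2 that was higher in both old samples, and 27.2% had a lower one.

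Celf1 (chr2:90940397-91019497, mm10) was at 33.0 FPKM in Old 1, 16.4 FPKM in Old 2, 16.2 FPKM in Young 1 and 31.7 FPKM in Young 2. Its crossed pairs gave ratios of 1.04 and 1.01, and the larger of these, 0.06 on the log2 scale, was below the SD of 0.07 between samples of an age. Celf2 (chr2:6539699-7396198, mm10) had the lowest level of the genes with a value above 0 in all samples. It was at 19.8 FPKM in Old 1, 10.2 FPKM in Old 2, 6.85 FPKM in Young 1 and 13.3 FPKM in Young 2. Its ratio was 1.49 in both crossed pairs, which was the highest among the 8 genes that could be compared and lay at percentile 90.2 and percentile 90.1 of all genes. The ratio of Celf1 to Celf2 was 1.67 in Old 1 and 1.61 in Old 2, against 2.37 in Young 1 and 2.39 in Young 2 (two-sided exact permutation test, p = 0.33). The old and young samples did not overlap in this ratio. Of 9291 other genes, 70.9% had a ratio to Celf2 that was lower in both old samples and 4.22% a higher one, so a lower ratio to Celf2 was shared by most genes.

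The balance of both families was compared as the sum of Mbnl1 and Mbnl2 over the sum of Celf1 and Celf2. This ratio was 5.16 in Old 1 and 4.41 in Old 2, compared with 4.6 (Young 1) and 4.99 (Young 2). Old and young samples overlapped (two-sided exact permutation test, p = 1.00), and the log2 difference between ages was -0.01, below the SD of 0.16 between the old samples and of 0.08 between the young samples. Among 9289 other genes, 16.5% had a higher and 49.3% a lower ratio to this sum in both old samples. The direction of the difference changed when Old 2 or Young 2 was left out, with log2 differences from -0.12 to 0.10.

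**Figure D1:**
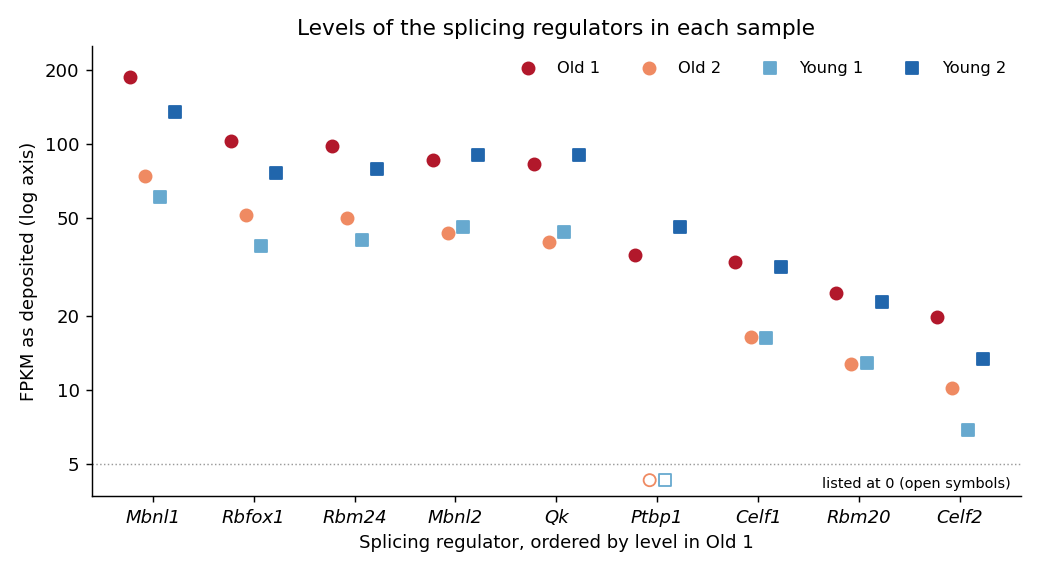
FPKM of the 9 splicing regulators (log axis) in Old 1, Old 2 (circles), Young 1 and Young 2 (squares); open symbols stand for values listed at 0. Mbnl1 was the highest in every sample, from 60.6 to 186 FPKM, and Ptbp1 was listed at 0 in Old 2 and Young 1.

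Rbfox1 (chr16:5884793-7412484, mm10) was at 103 FPKM in Old 1, 51.3 FPKM in Old 2, 38.5 FPKM in Young 1 and 76.0 FPKM in Young 2. Its crossed pairs gave ratios of 1.36 and 1.33. Rbm24 (chr13:46418300-46431099, mm10) was at 97.7 FPKM in Old 1, 50.1 FPKM in Old 2, 40.8 FPKM in Young 1 and 78.7 FPKM in Young 2, with ratios of 1.24 and 1.23. For both genes the old sample was the higher in each crossed pair, while the deposited levels of the ages overlapped. In both old samples, Rbfox1 and then Rbm24 followed directly after Mbnl1 in the order of levels. In both young samples, Mbnl2 and then Qk took these places, and Rbm24 and Rbfox1 came after them. The ratio of Rbfox1 to Mbnl2 was 1.20 and 1.18 in Old 1 and Old 2, against 0.841 in Young 1 and 0.841 in Young 2. The ratio of Rbm24 to Mbnl2 was 1.13 and 1.15 in the old samples, against 0.892 and 0.871 in the young samples. Neither ratio overlapped between ages (two-sided exact permutation test, p = 0.33 for each), and 36.1% of 9291 other genes also had a higher ratio to Mbnl2 without overlap. Rbfox1 and Rbm24 were near each other, with a ratio of 1.06 and 1.03 in the old samples and 0.943 and 0.965 in the young samples. A ratio to Rbm24 that was higher in both old samples was seen in 12.6% of 9291 other genes, and a lower one in 54.5%.

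Rbm20 (chr19:53677306-53867080, mm10) was at 24.7 FPKM in Old 1, 12.8 FPKM in Old 2, 12.8 FPKM in Young 1 and 22.7 FPKM in Young 2. Its crossed pairs gave ratios of 1.09 and 0.994, in opposite directions, and the ratio of Rbm20 to Celf1 overlapped between ages (0.749 and 0.776 in the old, 0.789 and 0.715 in the young samples), where 27.6% of other genes were higher and 35.3% lower without overlap. Relative to Rbm24, Rbm20 was lower in both old samples, at 0.253 and 0.255, than in Young 1 at 0.314 and Young 2 at 0.288, as were 54.5% of 9291 other genes. Qk (chr17:10202572-10319361, mm10) was at 82.5 FPKM in Old 1, 39.8 FPKM in Old 2, 43.7 FPKM in Young 1 and 90.3 FPKM in Young 2. Its crossed pairs gave ratios of 0.914 and 0.909. The ratio of Qk to Mbnl2 was 0.958, 0.914, 0.955 and 0.999 in Old 1, Old 2, Young 1 and Young 2 and overlapped between ages, while 36.2% of other genes had a higher and 27.2% a lower ratio without overlap. Qk came directly after Mbnl2 in the order of levels in every sample.

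In all, 11 ratios between genes were tested, of which 6 were added after the values were seen. The 8 ratios without overlap had a permutation p of 0.33 (exact, two-sided) and an adjusted p of 0.458 (Benjamini-Hochberg), so no ratio passed a threshold of 0.05, and 2 samples per age cannot pass it.

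**Figure D2:**
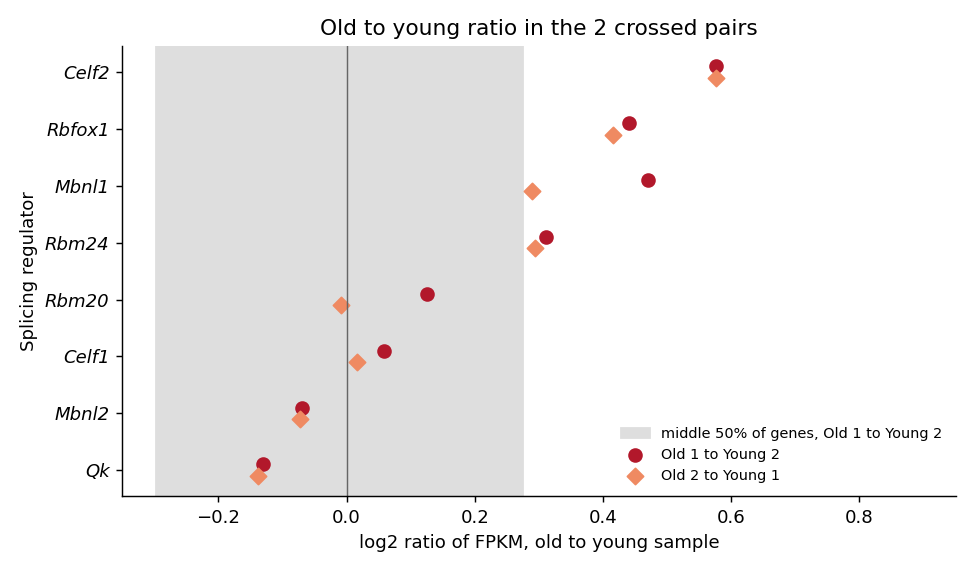
log2 ratio of FPKM of the old to the young sample in the crossed pairs (circles for Old 1 to Young 2, diamonds for Old 2 to Young 1) for the 8 regulators above 0 in all samples, with the middle 50% of all genes in Old 1 to Young 2 as a grey band from -0.30 to 0.28. Celf2, Rbfox1, Mbnl1 and Rbm24 lay above the band in both pairs, while Rbm20, Celf1, Mbnl2 and Qk lay within it.

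When all tested genes were compared between ages with limma on log2(FPKM + 1), with the values as deposited, 0 of the 9 regulators passed an adjusted p of 0.05 (Benjamini-Hochberg). At an unadjusted p of 0.05 the number was also 0, where 35 of the 10266 genes were higher and 42 lower in old muscles. The background at the adjusted p was low, with 0.175% of the 10266 genes higher and 0.127% lower. A count of 0 of 9 is thus near the share of all genes and tells little about the regulators. As deposited, the levels of all 9 regulators overlapped between ages, while 1.61% of the tested genes were higher and 1.93% lower in old muscles without overlap. The log2 differences, old minus young, were 0.53 for Celf2, 0.42 for Rbfox1, 0.38 for Mbnl1, 0.30 for Rbm24, 0.06 for Rbm20, 0.04 for Celf1, -0.07 for Mbnl2, -0.13 for Qk and -0.18 for Ptbp1. Their standard errors from limma were between 0.93 and 0.98, about the size of the factor between samples of an age, and the adjusted p was 1.00 for each. The median over the 9 regulators was 0.06, and 0.18 without Ptbp1, whose value included zeros, against -0.01 over all tested genes.

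Calls depended on how this factor was treated. After cyclic loess normalization, Celf2 (log2 difference 0.54, standard error 0.06), Rbfox1 (0.44, standard error 0.03) and Rbm24 (0.32, standard error 0.04) passed the threshold, with adjusted p of 0.0167, 0.00864 and 0.0175 from limma. These 3 of 9 compare with 11.1% of all genes higher in old muscles under the same setting (13.6% were lower). With the crossed pairs as a block, Mbnl1, Celf2, Rbfox1 and Rbm24 passed as higher in the old samples, and Mbnl2 and Qk as lower. The adjusted p was from 0.00565 to 0.0358 from limma. This block was chosen after the values were seen and does not pair animals. Its p-values measure only how alike the crossed pairs are, and Mbnl2 passed with a log2 difference of -0.07. The calls were 4 and 2 of 9, against 27.4% higher and 32.9% lower among all genes, so most genes passed under this setting. Of the genes above 0 in all 4 samples, 45.5% were higher and 48.6% lower in both crossed pairs, and of the 8 regulators 5 were higher and 2 lower. The remaining gene, Rbm20, went in opposite directions, as 5.93% of all genes did. The share of higher genes among all calls was larger with the values as deposited (18 higher and 13 lower) than after cyclic loess (1135 higher and 1395 lower).

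The profile of Celf2, which had the largest difference among the 9 genes after scaling each sample to the same median, was set against those of all tested genes. The nearest profiles over the 4 samples belonged to Tbc1d16 (distance 0.00192 on the centered log2 scale), Cnst (0.0156) and Camsap1 (0.0204). Tbc1d16 was at 15.4, 7.98, 5.31 and 10.2 FPKM in Old 1, Old 2, Young 1 and Young 2. With 4 samples this is a description.

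Ptbp1 could not be compared between ages. It was at 35.5 FPKM in Old 1 and 45.9 FPKM in Young 2, and it was listed at 0 in Old 2 and Young 1. The interval given for Ptbp1 is chr10:79697305-80369637 (mm10), which spans 672333 bases, while the gene itself takes up chr10:79854427-79864771 in the annotation. The same interval was given for 46 genes. All 46 were listed at 0 in Old 2 and all 46 in Young 1, against 3 in Old 1 and 1 in Young 2. Among them were Rps15, a ribosomal protein gene with 1919 FPKM in Old 1 and 1133 FPKM in Young 2, Gpx4 with 806 and 962 FPKM, and Atp5d, a subunit of ATP synthase, with 859 and 1225 FPKM. The zeros were thus shared by every gene of the interval and cannot be read as a level of Ptbp1. Of 1682 intervals with several rows, 7 were at 0 in every row in both Old 2 and Young 1 while reaching 1 FPKM in both Old 1 and Young 2, and 0 showed the opposite. In the pair that had values, the ratio of Old 1 to Young 2 was 0.772 for Ptbp1 and had a median of 0.839 over the 43 genes of the interval with a ratio, of which 12 were lower than Ptbp1. There was 1 sample per age for this comparison and no test was made. The ratio of Ptbp1 to Rbfox1 was 0.344 in Old 1 and 0.604 in Young 2. The log2 difference of -0.18 from limma included the zeros.

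**Figure D3:**
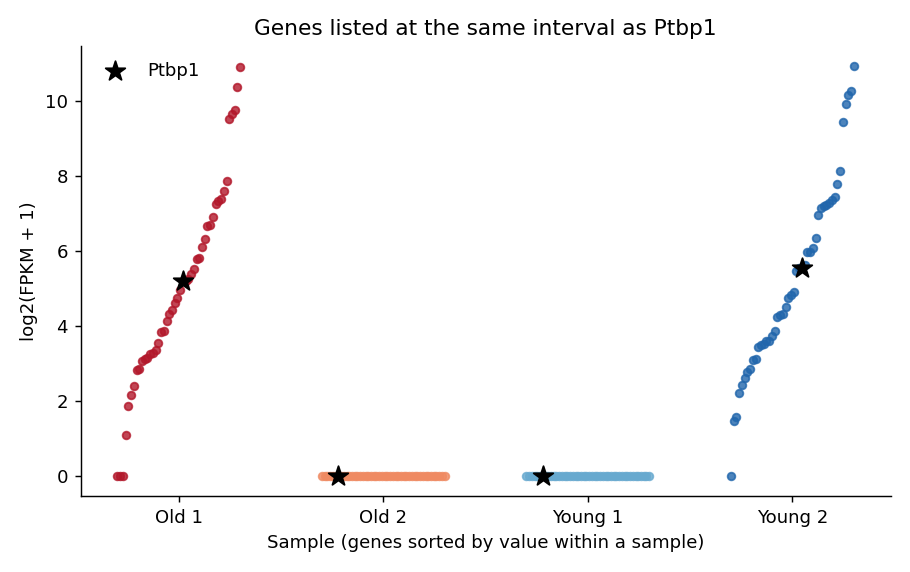
log2(FPKM + 1) of the 46 genes listed at the interval of Ptbp1, sorted within each sample, with Ptbp1 as a star. All 46 genes were at 0 in Old 2 and in Young 1, while 3 were at 0 in Old 1 and 1 in Young 2.

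Paralogs of the 9 regulators were compared from a list of 10 genes, of which 7 had a value and 3 passed the filter. The 3 tested paralogs, Rbfox2, Rbm38 and Ptbp2, were all lower in the old sample of both crossed pairs, as were 48.6% of all genes. With the values as deposited, none passed the threshold of limma (0 of 3), and all 3 passed it as lower after cyclic loess normalization, where 13.6% of all genes were lower. Rbm38, which like Rbm24 is known to act on muscle exons and on mRNA stability, was at 105 FPKM in Old 1, 54.2 FPKM in Old 2, 116 FPKM in Young 1 and 215 FPKM in Young 2. Without any scaling, both old samples were below the lower of the young samples, as in 1.93% of the 10266 tested genes. The ratios in the crossed pairs were 0.488 and 0.468, with a log2 difference of -1.06 (adjusted p = 1.00 from limma as deposited, 0.00864 after cyclic loess). Rbfox2, the more widely expressed relative of Rbfox1, was at 21.8, 11.3, 16.5 and 32.1 FPKM in Old 1, Old 2, Young 1 and Young 2, with ratios of 0.679 and 0.685. Ptbp2, the neuronal relative of Ptbp1, was at 12.3, 6.07, 7.83 and 15.6 FPKM, with ratios of 0.786 and 0.776.

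The regulators were also set against their own paralogs within each sample. The ratio of Rbm24 to Rbm38 was 0.932 in Old 1 and 0.925 in Old 2, against 0.353 in Young 1 and 0.366 in Young 2. The ratio of Rbfox1 to Rbfox2 was 4.72 in Old 1 and 4.55 in Old 2, against 2.33 in Young 1 and 2.36 in Young 2. Neither overlapped between ages (two-sided exact permutation test, p = 0.33 for each). A ratio to Rbm38 that was higher in both old samples was common, with 83.5% of 9291 other genes, and that to Rbfox2 was seen in 67.2%. A lower ratio was seen in 1.39% for Rbm38 and in 5.9% for Rbfox2. The other 4 paralogs with a value, Celf3, Celf4, Celf5 and Rbfox3, stayed below the filter, and Mbnl3, Celf6 and Ptbp3 were not analysed here.

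**Figure D4:**
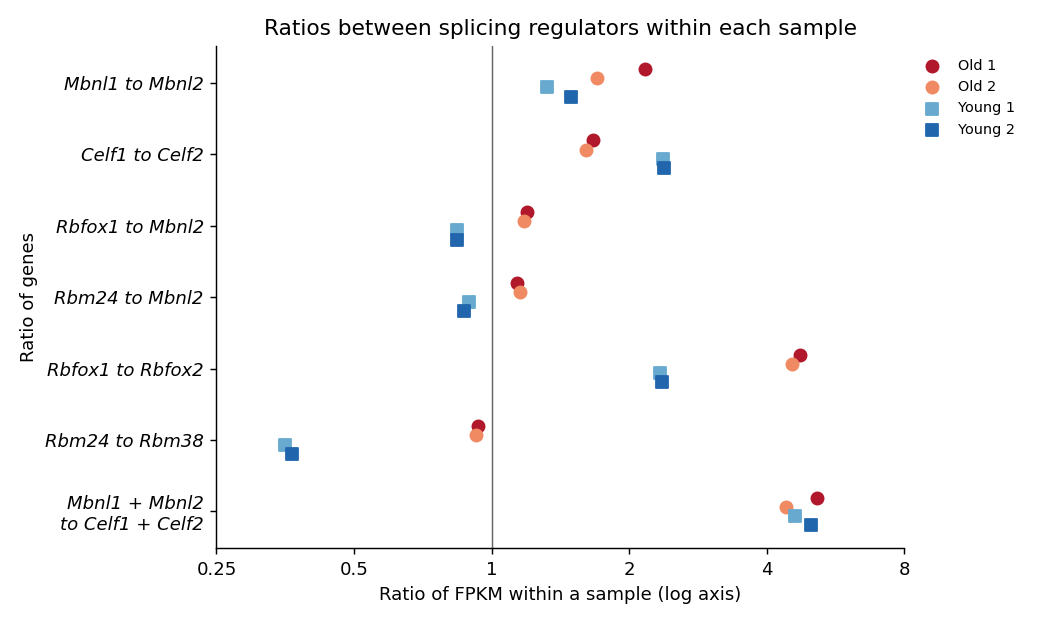
Ratio of FPKM between regulators within each sample (log axis), with circles for Old 1 and Old 2 and squares for Young 1 and Young 2. Old and young samples were apart for all ratios shown but that of Mbnl1 plus Mbnl2 to Celf1 plus Celf2, which was from 4.41 to 5.16.

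Of 10 splicing regulators of brain or epithelium, 8 had a value, 2 passed the filter and 0 passed the threshold of limma as deposited. Khdrbs3 had ratios of 1.43 and 1.28 in the crossed pairs. Nova1, a neuronal regulator, was listed at 0 in Old 2 and had 4.63 FPKM in Old 1, 0.191 FPKM in Young 1 and 1.58 FPKM in Young 2. Of 14 other RNA-binding proteins that act on muscle exons, 11 were tested and 0 passed as deposited. In both crossed pairs 6 were higher and 5 lower, where 45.5% and 48.6% of all genes were. After cyclic loess 2 were higher (Fxr1 and Fxr2) and 1 lower (Ddx17), against 11.1% and 13.6% of all genes. Fxr1, whose muscle isoform is itself made by splicing, had 257 FPKM in Old 1, 113 FPKM in Old 2, 88.8 FPKM in Young 1 and 183 FPKM in Young 2. Its ratios were 1.41 and 1.28, while those of the RNA helicase Ddx17 were 0.754 and 0.772. Rbm4 (0.887 and 0.809) and Rbm4b (0.831 and 0.837) were also lower in both old samples of the crossed pairs.

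Genes whose exons are known to be set by these regulators were compared in 3 lists, at the level of the whole gene. In the sarcomere list, 12 of 15 genes were tested. As deposited, 0 passed the threshold as higher and 2 as lower, Ttn and Tnnt3, both listed at 0 in both old samples. Ttn, the titin gene and the main target of Rbm20, had 14.1 and 299 FPKM in Young 1 and Young 2, and Tnnt3, the fast troponin T gene and a target of muscleblind proteins, had 4465 and 7509 FPKM. Neb, the nebulin gene, was listed at 0 in Old 2 and Young 1 and had 2361 FPKM in Old 1 and 1775 FPKM in Young 2. No fold is given against a value of 0, and the calls of Ttn and Tnnt3 rest on such values. Ttn did not pass after cyclic loess (adjusted p = 0.0575 from limma) or with crossed pairs as the block (adjusted p = 0.0658 from limma), while Tnnt3 passed under both. Of the 9 genes of the list above 0 in all samples, 6 were lower in both crossed pairs and 1 was higher, against 48.6% and 45.5% of all genes. Ldb3, which encodes the Z-disc protein Cypher and is spliced by muscleblind and Rbm20 proteins, had ratios of 0.637 and 0.741. The ratios of Actn1, an actinin gene, were 0.798 and 0.701.

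In the list of membrane and calcium-handling genes, 10 of 14 were tested, and as deposited 0 passed the threshold of limma. In both crossed pairs 5 were higher and 4 lower, near the 45.5% and 48.6% of all genes. After cyclic loess 3 were higher and 0 lower, against 11.1% and 13.6% of all genes. The higher genes were Bin1, the T-tubule gene mis-spliced in myotonic dystrophy, at 418 FPKM in Old 1, 191 FPKM in Old 2, 144 FPKM in Young 1 and 290 FPKM in Young 2 (ratios 1.44 and 1.32), Camk2b, a calcium-dependent kinase gene with ratios of 1.44 and 1.41, and Trdn, the triadin gene, with ratios of 3.23 and 1.75 that differed between the pairs. Clcn1, the muscle chloride channel gene whose splicing defect causes myotonia, was at 82.2, 40.6, 44.3 and 88.3 FPKM in Old 1, Old 2, Young 1 and Young 2, with ratios of 0.931 and 0.918. Those of Dtna, a gene of the dystrophin complex, were 0.922 and 0.873.

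In the list of signaling, transcription and trafficking genes, 10 of 12 were tested, and 1 was higher as deposited (Mef2c, adjusted p = 0.00148 from limma). Mef2c, a muscle transcription factor gene, was listed at 0 in Young 1 and had 213 FPKM in Old 1, 96.7 FPKM in Old 2 and 45.9 FPKM in Young 2, so its call rested in part on a value of 0. It did not pass after cyclic loess (adjusted p = 0.175 from limma) or with crossed pairs as the block (adjusted p = 0.116 from limma). Its level in Old 1 was 4.65 times that in Young 2. Ppp3ca, a catalytic subunit of calcineurin, had ratios of 1.41 and 1.37, and Mef2d had ratios of 0.768 and 0.782. After cyclic loess, 5 genes of this list were higher (Mef2a, Ppp3ca, Ppp3cb, Snap23 and Trip10) and 0 lower, against 11.1% higher and 13.6% lower among all genes. The medians of the log2 difference as deposited were -0.20 for the sarcomere list, 0.02 for the membrane and calcium list and 0.20 for the signaling list, against -0.01 over all tested genes.

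**Figure D5:**
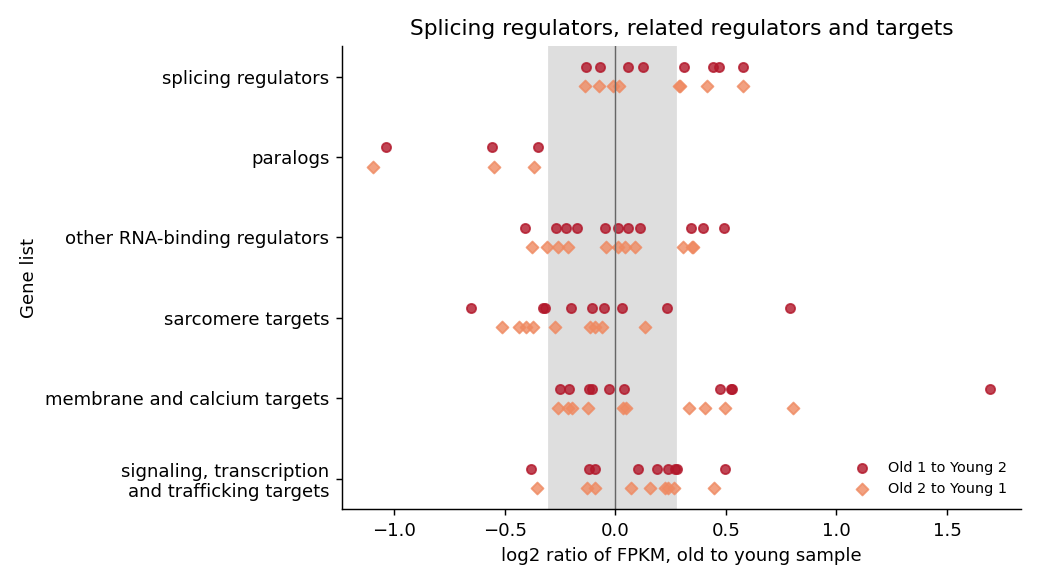
log2 ratio of FPKM of the old to the young sample for the regulators and 5 related gene lists, for genes above 0 in all samples (circles for Old 1 to Young 2, diamonds for Old 2 to Young 1); the grey band holds the middle 50% of all genes in Old 1 to Young 2. The 3 paralogs lay below the band in both pairs, and the other lists spread to both sides of 0.

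Markers of fiber type and of other cells were compared in the same samples. In whole muscle, a gene that is lower because fewer cells of a type are present cannot be told apart from less mRNA per cell. All 5 slow-fiber markers were higher in old muscles and passed the threshold of limma as deposited, where 0.175% of all genes were higher. The slow-fiber markers summed to 1167, 421, 27.9 and 73.0 FPKM in Old 1, Old 2, Young 1 and Young 2. Their part in the differences of Celf2, Rbfox1, Mbnl1, Rbm24 and Rbm38 was not tested. Of the fibroblast markers, 6 of 6 were tested. In both crossed pairs 4 were lower and 2 higher, where 48.6% and 45.5% of all genes were. The fibroblast markers summed to 179, 92.2, 132 and 261 FPKM in Old 1, Old 2, Young 1 and Young 2. The collagen genes had the lowest ratios, with Col1a1 at 0.230 and 0.235, Col1a2 at 0.318 and 0.327 and Col3a1 at 0.340 and 0.367. Lum was nearer to no difference (0.862 and 0.873), and Pdgfra (1.16 and 1.18) and Dcn (1.24 and 1.21) were higher. The summed level of macrophage and leukocyte markers was 18.7, 7.10, 11.6 and 28.5 FPKM, with 3 of 4 tested genes lower in both pairs, against 48.6% of all genes. Of these genes, Cd68 (0.105 to 2.83 FPKM) and Csf1r (0.483 to 1.93 FPKM) had low levels, and Lyz2 was at 6.27 to 22.2 FPKM. Endothelial markers summed to 67.9, 34.1, 41.7 and 80.7 FPKM, smooth muscle markers to 77.4, 39.5, 48.4 and 92.3 FPKM, and Schwann cell markers to 26.5, 12.3, 17.4 and 36.3 FPKM. Adipocyte markers summed to 327, 167, 183 and 354 FPKM, most of which was Fabp4 (ratios 0.906 and 0.899). The other 3 tested markers, Adipoq (1.97 and 2.17), Plin1 (1.4 and 1.5) and Cidec (1.35 and 1.29), were higher in both pairs, as were 45.5% of all genes. Of these markers, Plin1 (0.422 to 2.18 FPKM) and Cidec (0.693 to 3.15 FPKM) had low levels, and Adipoq was at 1.37 to 8.49 FPKM. Satellite cell markers summed to 16.3, 7.12, 8.56 and 19.7 FPKM, most of which was Myod1 (0.790 and 0.808), while Myf5 had ratios of 1.20 and 1.59. Pax7, which defines satellite cells, and Ptprc, which defines leukocytes, were below the filter. The part of these cells in the values of Ptbp1, Ptbp2, Rbfox2 and Qk, which many cell types express, was not tested.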

How the data were processed

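TA muscle of 2 old and 2 young samples was grouped by the ages in the sample labels. The methods of the study state that the authors trimmed reads, removed PCR duplicates, used TopHat2 (2.0.10) with RefSeq genes on mm10, and obtained FPKM for each sample with Cufflinks (2.1.1), and the labels name Cuffdiff (2.1.1). Per the labels a TruSeq RNA kit was used, while the methods name a stranded one. These FPKM values were deposited by locus. The incomplete line that ends each sample's values (1 per sample) and 542 loci lacking a value in any of the samples were not analysed here. Start positions were raised by 1 to be 1-based. Rows of a symbol were summed. Genes reaching 1 FPKM in 2 or more samples were tested for age with limma 3.58.1 (R 4.3.3) on log2(FPKM + 1), using a mean-variance trend, two-sided p-values and Benjamini-Hochberg adjustment over all tested genes at 0.05. The fold changes of low genes are understated on this scale. The fit was also run on simulated data with a set spread and factor, which need not match those of these samples, and no result here rests on that run. Ratios within a sample were compared by exact permutation tests (scipy 1.17.1). No interval from counts was possible, because the depth is unknown.

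The members and gene lists were chosen with earlier results of these data known. Besides the 9 regulators, up to 4 genes of a list were eligible to be named, those with the largest log2 difference after median scaling and no overlap between ages. For the regulator with the largest such difference, the 3 nearest profiles (Euclidean distance) were named. Neb, Nova1, Clcn1, Mylpf, Tnnc2, Pvalb, Ckm, Pax7, Ptprc, Tial1, Fabp4, Plin1, Cidec, Myf5, Dcn, Lum, Fxr2, Mef2a, Ppp3cb, Snap23, Trip10 and the genes at the interval of Ptbp1 were named after their values were seen. Deviations from the age mean, without scaling, had a correlation of -0.885 across 10266 genes between same-numbered samples, so samples of the same number do not share a scale. With 2 samples per age, the value between different numbers is the same with the sign turned. This cannot tell whether the numbers pair the samples in another way. Alternatives were a pseudocount of 0.1, other filters, median scaling, quantile normalization, cyclic loess, the highest row of a symbol, the replicate number as a block, no trend and leaving out each sample. The crossed pairs, median-ratio scaling and log2 median centring were added after seeing the data. Sequences were read from GENCODE M21.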

Additional observations from a re-analysis of the deposited data

How the results depend on the processing

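The log2 differences of the 9 regulators kept their direction in the alternatives run that used all 4 samples, from 0.52 to 0.57 for Celf2, 0.42 to 0.46 for Rbfox1, 0.30 to 0.41 for Mbnl1, 0.29 to 0.32 for Rbm24 and -0.14 to -0.11 for Qk. This is weak as a check. The filter, trend and block settings cannot change a balanced difference of means. Scaling a whole sample moves it little when each age holds a high and a low sample. Ptbp1 had no value under the filter of 1 FPKM in every sample. The count of regulators past the threshold of limma (0 as deposited) became 3 higher after cyclic loess and 4 higher and 2 lower when crossed pairs were the block, and was 0 under the others. Under the replicate block it was 0, with a log2 difference of 0.53 and a standard error of 1.88 for Celf2. The count of all genes past the threshold (18 higher and 13 lower) was 4 and 2 under the filter of 1 FPKM in every sample, 119 and 188 with quantile normalization, 1135 and 1395 with cyclic loess, 2 and 3 under the replicate block, 2812 and 3374 under the block of crossed pairs, 61 and 75 with median-ratio scaling and 75 and 129 with log2 median centring. The cause of these moves was not tested. Leaving out 1 sample unbalances the factor between samples of an age, the lone sample being assumed to vary like the others. The counts were then 2 to 6 higher and 3 to 10 lower, with 0 regulators. The log2 differences ranged from -0.28 to 1.04 for Mbnl1, -0.55 to 0.41 for Mbnl2, -0.45 to 0.52 for Celf1, 0.08 to 0.97 for Celf2, -0.076 to 0.92 for Rbfox1, -0.40 to 0.51 for Rbm20, -0.18 to 0.77 for Rbm24, -2.96 to 2.59 for Ptbp1 and -0.65 to 0.39 for Qk. The log2 difference of Mbnl1 plus Mbnl2 to Celf1 plus Celf2 ranged from -0.12 to 0.10. The other 4 planned ratios kept their direction, which follows from their lack of overlap between ages and adds no further check.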

Other observations

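Tial1, a splicing regulator related to Tia1, had a value in Old 2 (8.82 FPKM) and Young 1 (10.2 FPKM) alone, and was not analysed here in the other samples. With 1 sample per age no test was made.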
